A study of Mus musculus with 12 samples.

Results

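Death receptor signaling was described here through 10 genes, namely the ligands Tnf and Tnfsf10, the receptors Tnfrsf1a, Tnfrsf1b and Fas, the apoptosis effectors Casp8 and Cflar, and the necroptosis effectors Ripk1, Ripk3 and Mlkl, out of 20887 genes that could be named on the array. All 10 had a probe, and every probe whose RefSeq identifier belonged to one of them was read, which gave 13 probes. Tumor necrosis factor and the Fas and TRAIL ligands bind trimeric receptors of the TNF receptor superfamily, several of which carry an intracellular death domain. From the TNF receptor, adaptors and ubiquitin ligases built around the kinase RIPK1 lead to NF-kB and to survival, whereas loss of this brake lets caspase-8 start apoptosis or lets RIPK3 and MLKL start necroptosis. In brain tissue TNF comes mainly from activated microglia, and astrocytes and neurons are among the cells that carry its receptors.

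RNA came from neurospheres, aggregates of neural progenitor cells, grown from the telencephalon of C57BL/6 mouse embryos at day 13 and differentiated for 7 days without growth factors. WT neurospheres came from wild-type embryos, and APP_WT neurospheres came from embryos with the APPswe and PS1dE9 transgenes, which encode a mutant amyloid precursor protein of mixed mouse and human sequence and a shortened human presenilin 1, with expression directed to neurons of the central nervous system. BK_APP and HOE_APP neurospheres carried the same transgenes and received 1 µM bradykinin (BK), the peptide agonist of the kinin B2 receptor, or 1 µM HOE-140, a peptide antagonist of that receptor, on days 0, 3 and 6. Wild-type neurospheres were not treated with either. Each of 12 2-color arrays held both conditions of a comparison, and APP_WT vs WT, BK_APP vs APP_WT and HOE_APP vs APP_WT had 4 arrays each, with the condition in Cy3 on 2 arrays and in Cy5 on the other 2. The untreated APP_WT neurospheres are thus the reference of both treatments and the numerator against WT, and the labels do not say whether the same extracts were used. On the HOE_APP arrays the labels name the same treatment in both channels, so their direction is likely only, and the signs of HOE_APP vs APP_WT would turn if it were wrong.

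Median signals were 59 to 87 in green and 80 to 105 in red, with 1 saturated spot over all arrays. A probe was tested if, in some comparison, the scanner software marked it as well above background for the same condition on 3 or more of its 4 arrays, and 29361 probes met this. Mouse App was 0.12 (log2) higher in APP_WT than in WT with an adjusted p of 0.0925, which did not pass the threshold of 0.05. Prnp, the prion protein gene whose promoter drives these transgenes, was 0.75 higher (adjusted p = 0.00581, limma) and above 0 on all 4 arrays. Its ratios were uneven, at 0.59, 0.59, 1.57 and 0.25. The transgenes themselves were not checked here. Of the 10 genes 7 passed this filter, namely Tnf, Tnfrsf1a, Fas, Casp8, Cflar, Ripk1 and Mlkl. Tnf, Casp8 and Mlkl passed only through transgenic conditions on the treatment arrays, and their probes were well above background on no array in WT. Tnfsf10 and Tnfrsf1b were not well above background on any array in either channel, and Ripk3 was so only on the third APP_WT vs WT array, in both channels. No fold change is given for these 3 genes.

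The stretch of 250 bases before the start of the gene is shown for the 4 members that rose in APP_WT, with the motif matches found in it. They are RefSeq sequences on build GRCm38.p6, which is not the build of the array design. Tnf lies at chr17:35202008-35202257 on the minus strand, Tnfrsf1a at chr6:125349473-125349722, Fas at chr19:34290409-34290658 and the second listed start of Ripk1 at chr13:34002624-34002873, all 3 on the plus strand. Capitals mark matches, on either strand, to TTCNNNGAA, the gamma-activated site bound by STAT dimers. The AP-1 letters TGANTCA are in capitals as well. So are the letters TATAAA of the TATA box. The interferon-stimulated response element and the kappa-B consensus were searched too and had no match in these 4 windows.
Tnf: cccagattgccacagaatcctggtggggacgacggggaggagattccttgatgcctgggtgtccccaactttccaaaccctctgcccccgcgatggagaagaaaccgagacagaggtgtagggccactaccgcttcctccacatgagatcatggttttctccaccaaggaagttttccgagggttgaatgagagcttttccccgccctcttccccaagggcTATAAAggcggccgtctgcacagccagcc
Tnfrsf1a: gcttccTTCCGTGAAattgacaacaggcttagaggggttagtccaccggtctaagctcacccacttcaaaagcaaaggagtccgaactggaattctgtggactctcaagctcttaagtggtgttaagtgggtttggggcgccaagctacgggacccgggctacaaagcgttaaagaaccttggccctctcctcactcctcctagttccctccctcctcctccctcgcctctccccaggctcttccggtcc
Fas: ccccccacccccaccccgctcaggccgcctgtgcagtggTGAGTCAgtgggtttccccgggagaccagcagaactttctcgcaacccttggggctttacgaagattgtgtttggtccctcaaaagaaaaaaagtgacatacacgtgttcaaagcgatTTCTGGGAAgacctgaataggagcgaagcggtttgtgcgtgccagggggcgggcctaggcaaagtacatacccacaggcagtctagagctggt
Ripk1: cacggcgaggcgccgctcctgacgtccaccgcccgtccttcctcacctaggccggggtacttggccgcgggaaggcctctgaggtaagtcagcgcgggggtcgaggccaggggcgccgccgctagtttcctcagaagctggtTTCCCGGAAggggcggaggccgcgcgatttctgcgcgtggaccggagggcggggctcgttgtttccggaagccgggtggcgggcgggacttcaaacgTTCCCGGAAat

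Of the 11 promoters listed for the 10 genes, 4 held TTCNNNGAA, which was present in 7.02% of all 32851 promoters of this length. They were those of Tnfrsf1a (from -244 to -236 relative to the start), Tnfrsf1b, Fas (from -93 to -85) and the second start of Ripk1 (from -108 to -100 and from -11 to -3). The first start of Ripk1 (chr13:34002113-34002362) held no match to any of the motifs, and the second was chosen for printing because it held matches. The AP-1 letters stood in the Fas promoter from -211 to -205 and in 6.75% of all promoters. The TATA letters stood in the Tnf promoter from -29 to -24, in that of Cflar and in 12.4% of all promoters. The kappa-B consensus (7.25% of all promoters) was in none of the 11 windows, and the interferon-stimulated letters (2.98%) were in that of Tnfrsf1b only. These are matches of letters in a window and not sites, and the arrays did not measure binding.

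The receptors Fas and Tnfrsf1a, the ligand Tnf and the kinase Ripk1 were more abundant in APP_WT than in WT neurospheres, while Casp8, Cflar and Mlkl did not pass the test on their brightest probes. Of the 7 tested members, 4 rose, namely Fas, Tnfrsf1a, Tnf and Ripk1, and none fell, in limma with p adjusted over all tested probes. Tnf was tested only because of its signal in transgenic conditions, so its place in this count depends on the filter. Over all tested probes 11.6% rose (3392) and 7.00% fell (2054). That split turned with the scaling, to 2136 higher and 3727 lower after median centering, 2681 and 5146 in the processed signals of the scanner software and 2604 and 5386 in the deposited log2 ratios. On all 4 arrays 5 of the 7 members were above 0 (Cflar also), against 15.1% of all tested probes. The median log2 fold change of the members was 0.33, and that of all tested probes was 0.00. SAM and rank products, the tests named in the methods, called 4 members higher and none lower, against 7.65% higher and 4.42% lower over all probes.

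**Figure D1:**
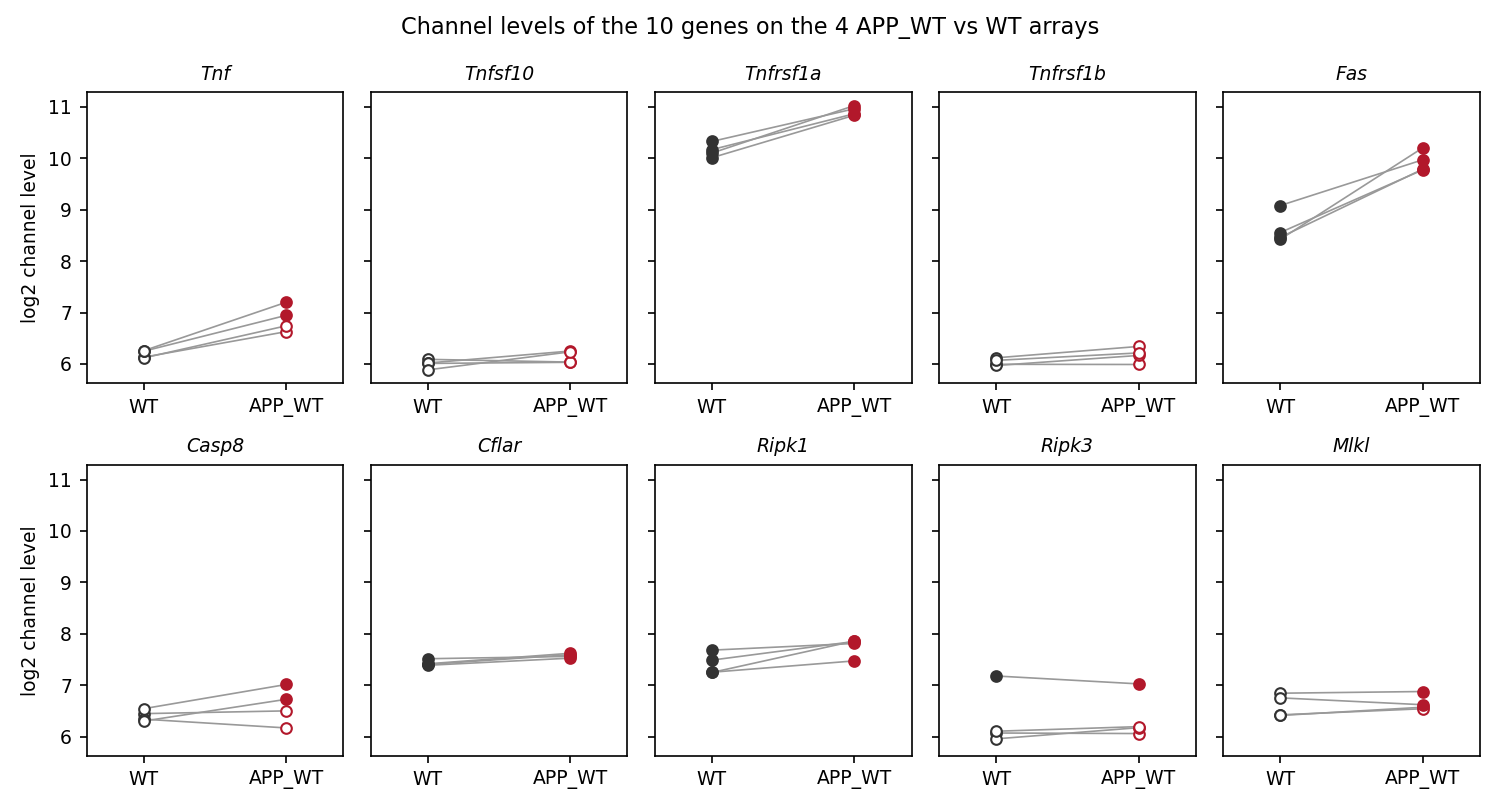
Log2 channel level (y axis, background-corrected and normalized intensity) of the 10 genes in WT (black) and APP_WT (red) on the 4 arrays that compared them, with a line joining the channels of an array and open circles where the probe was not well above background. Fas, Tnfrsf1a and Tnf are higher in APP_WT on every array, Tnfsf10 and Tnfrsf1b have open circles only, and levels of different genes come from different probes and are not comparable.

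Fas is the receptor that, bound by Fas ligand, assembles caspase-8 on its death domain. Its probe (A_55_P2091676) had log2 levels of 9.08, 8.46, 8.56 and 8.42 in WT and of 9.97, 9.79, 9.78 and 10.20 in APP_WT on arrays 1 to 4. All APP_WT values lay above all WT values. How many of all tested probes separate in this way was not counted, here or for Tnfrsf1a and Tnf below. The log2 ratio of APP_WT over WT was 0.89, 1.33, 1.22 and 1.78, with a mean of 1.30 (95% interval 1.07 to 1.54, adjusted p = 1.52e-05, limma). This is a 2.47-fold higher level, and 0.412% of all tested probes had a larger increase.

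Tnfrsf1a encodes TNF receptor 1, the death domain receptor through which soluble TNF signals. Its brighter probe (A_52_P192426) gave levels of 10.33, 10.01, 10.17 and 10.10 in WT and of 10.97, 10.84, 10.87 and 11.03 in APP_WT, and the groups did not overlap. The log2 ratio was 0.64, 0.83, 0.70 and 0.92, with a mean of 0.77 (95% interval 0.62 to 0.92, adjusted p = 2.24e-05, limma). The second probe for the same transcript (A_55_P2051099) rose as well, by 0.47 (0.36 to 0.58, adjusted p = 1.06e-04, limma). Its ratios of 0.58, 0.64, 0.28 and 0.36 were larger on the arrays with APP_WT in Cy3, which the brighter probe did not show.

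Tnf, the ligand of that receptor, was near the detection limit. Levels of its probe (A_51_P385099) were 6.13, 6.12, 6.25 and 6.26 in WT, where no array was well above background, and 6.63, 6.74, 6.95 and 7.20 in APP_WT, where the third and the fourth array were. The groups did not overlap, and the mean level was 6.19 ± 0.07 (SD, n = 4) in WT and 6.88 ± 0.25 in APP_WT. Because WT gave only a bound, the mean levels put Tnf at least 1.58-fold higher in APP_WT (adjusted p = 9.68e-05, limma). This bound is not firm, since APP_WT itself was not well above background on the first and the second array. The size depended on the background. The log2 difference was 0.69 here, 1.11 with a smaller offset in the background correction, 2.43 with the processed signals of the scanner software and 2.54 in the deposited log2 ratios, and it passed the threshold in each.

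Ripk1, the kinase that links TNF receptor 1 to NF-kB or to cell death, rose least of the 4. Its probe (A_52_P174775) had levels of 7.68, 7.25, 7.49 and 7.25 in WT and of 7.81, 7.47, 7.85 and 7.86 in APP_WT, and the groups overlapped. Within arrays APP_WT was higher on all 4, with log2 ratios of 0.13, 0.22, 0.36 and 0.61 and a mean of 0.33 (95% interval 0.18 to 0.49, adjusted p = 0.00782, limma). The ratios were larger on the arrays with APP_WT in Cy5 (0.36 and 0.61) than on those with APP_WT in Cy3. The call was lost without the fourth array, where the mean was 0.27 and the adjusted p was 0.0625, in the processed signals (0.31, adjusted p = 0.0528) and in separate fits without dye terms (adjusted p = 0.0947).

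Casp8 and Cflar, which meet at the death domain complex, did not pass the test on their brightest probes. Casp8, the initiator caspase, was detected above background on no array in WT and on the third and the fourth in APP_WT, with mean levels of 6.41 ± 0.11 (SD, n = 4) in WT and 6.60 ± 0.36 in APP_WT. Its log2 ratio was 0.05, -0.17, 0.42 and 0.47, so that the arrays with APP_WT in Cy5 were higher, and its mean of 0.19 did not pass (adjusted p = 0.0604, limma). Casp8 did pass with the smaller background offset, at 0.31 (adjusted p = 0.0312), and with the processed signals, at 0.90 (adjusted p = 0.0135).

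Cflar encodes c-FLIP, a caspase-8 homolog without protease activity that restrains it, and its 3 probes differed. The brightest (A_55_P1983468) had log2 ratios of 0.20, 0.14, 0.05 and 0.19, all above 0, with a mean of 0.14 (95% interval 0.04 to 0.25, adjusted p = 0.0648, limma). A second probe (A_52_P226929), for another transcript, was at -0.14, 0.10, 0.39 and 0.63 and passed the threshold with a mean of 0.24 (0.11 to 0.37, adjusted p = 0.0155, limma), again with higher values on the arrays with APP_WT in Cy5. The third probe was not well above background in either condition. The brightest probe passed with the replicate number as a block (adjusted p = 0.0444) and turned to -0.05 in the processed signals and in the deposited log2 ratios.

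Mlkl, which perforates the membrane in necroptosis, had levels of 6.61 ± 0.22 (SD, n = 4) in WT, where no array was well above background, and 6.65 ± 0.15 in APP_WT, where 2 arrays were, and an adjusted p of 0.681 (limma). Ripk3, the kinase that activates it, was at 7.18 in WT and 7.02 in APP_WT on the third array and between 5.96 and 6.19 elsewhere in that comparison.

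Whether genes that act as a pair changed unequally was asked within arrays. Casp8 minus Cflar differed by 0.05 ± 0.33 (SD, n = 4) in log2 ratio, with a two-sided exact sign-flip permutation p of 0.875, where 4 arrays can give no p below 0.125. Casp8 was below the detection limit in WT, so this difference is limited as well. Tnfrsf1b against Tnfrsf1a and Ripk3 against Ripk1 could not be compared, since Tnfrsf1b and Ripk3 were not measured above background.

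Cell type markers moved with the same comparison. Of 20 microglial markers, 19 had a probe, 17 were tested and 15 rose, with a median log2 fold change of 1.39 and a range from 0.05 for Siglech to 2.52 for Ctss, a lysosomal protease. Among the tested markers, none of the WT arrays had Adgre1 or Laptm5 well above background. The summed log2 level of the 19 microglial markers with a probe was 14.8 to 15.2 in APP_WT and 14.5 to 14.9 in WT. P2ry12 and Spi1 were not tested because they were too dim. Of 8 astrocyte markers 7 rose (median 0.37, from 0.20 for Aldh1l1 to 0.73 for Aqp4, a water channel). In a bulk sample more cells of a type and more RNA per cell cannot be told apart, and the part of these cells in the changes of Fas, Tnfrsf1a, Tnf and Ripk1 was not tested.

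The other lists moved less, or in both directions. Of 10 neuronal markers 3 rose and 2 fell (median 0.02, from -0.54 for Dcx to 0.43 for Syt1), and of 7 oligodendrocyte lineage markers 1 rose and 1 fell (from -0.21 for Olig2 to 0.32 for Cspg4). Of 5 progenitor markers 2 rose and 2 fell (from -0.63 for Hes5 to 0.97 for Vim), and of 5 tested pericyte and fibroblast markers 3 fell (from -0.62 for Lum to -0.04 for Col1a1). Of 4 tested endothelial markers 1 rose (Flt1, at least 1.32-fold, while Kdr was at 0.04). Among 8 peripheral myeloid and T cell markers, Cd3e alone was tested, at 0.02 with an adjusted p of 0.838.

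The wider pathway was described with 72 other genes, of which 65 were tested in APP_WT vs WT. Of these 16 rose and 3 fell, which is 24.6% and 4.62% of the list, against 11.6% and 7.00% of all probes, and the median of the list was 0.06. No ligand of the list passed the test, since 4 of the 6 ligands (among them Fasl, Lta and Ltb) were too dim and the other 2 were not called.

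Receptors that rose were Tnfrsf12a, the receptor of TWEAK, by 0.95 (95% interval 0.78 to 1.11, adjusted p = 1.39e-05, limma), Ltbr, the lymphotoxin beta receptor, by 0.62, and Tnfrsf10b, the mouse TRAIL receptor with a death domain, by 0.41. The remaining 6 of the 9 tested receptors and decoys were not called. Of the 3 genes that control shedding of TNF and its receptors 2 rose. Rhbdf2, which brings the TNF-releasing protease ADAM17 to the cell surface, was detected above background on all 4 arrays in APP_WT and on none in WT, at least 2.06-fold higher (adjusted p = 6.33e-05, limma).

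Adaptors that rose included Traf1 by 0.95 (0.75 to 1.14, adjusted p = 4.21e-05, limma) and Traf5 by 0.54 (not called without dye terms, adjusted p = 0.0574), and 4 of the 11 tested adaptors and ubiquitin ligases rose in all. Among 10 brakes 3 rose, led by Tnfaip3, the ubiquitin-editing enzyme A20 that ends NF-kB signaling, by 0.82 (0.69 to 0.94, adjusted p = 5.27e-06, limma) and above 0 on all 4 arrays. Tnip1, a partner of A20, rose by 0.42. Of the 11 kinases and their partners that lead to NF-kB and MAPK, 2 rose and 1 fell.

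Caspases and the mitochondrial step moved in both directions. Of 13 tested caspases and genes of the mitochondrial step 1 rose, 2 fell and 10 were not called, with a median of -0.01. Of these 2, Apaf1, the scaffold of the apoptosome, fell by 0.37 (adjusted p = 0.0246, limma), and the other is not reported here. In the group of kinases and their partners, Tab3, a partner of the kinase TAK1, fell by 0.22 (adjusted p = 0.00926, limma). The falls of Apaf1 and Tab3 were lost without the second array (-0.24, adjusted p = 0.159, and -0.18, adjusted p = 0.0665) and without the third (-0.31, adjusted p = 0.138, and -0.21, adjusted p = 0.0521), and the count of falls in the list was then 1 in place of 3. In separate fits without dye terms neither passed (adjusted p = 0.0821 for Apaf1 and 0.142 for Tab3). Among 6 genes of other necroptosis triggers 1 rose. The remaining 8 genes that rose, which the plot of the pathway names, did so by 0.21 to 0.40.

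**Figure D2:**
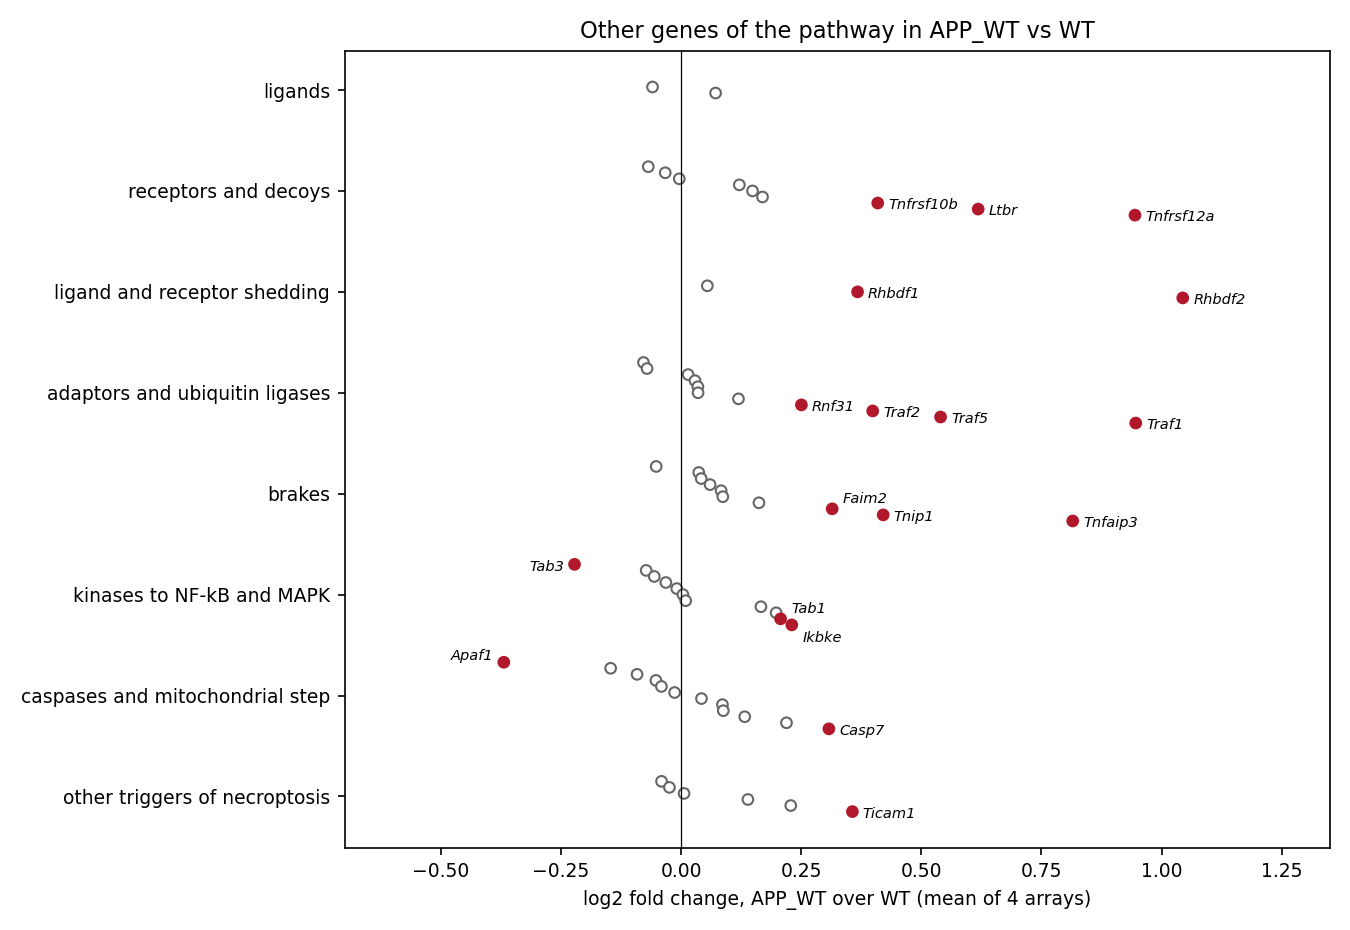
Log2 fold change of APP_WT over WT (x axis, mean of 4 arrays) for 64 tested genes of the pathway list, in 8 groups (y axis), with filled red circles and names for the 18 genes with an adjusted p below 0.05 and open circles for the rest. The filled circles right of 0 number 16 and reach 1.04 (Rhbdf2), and the 2 left of 0 are Apaf1 and Tab3.

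Bradykinin treatment asked whether a B2 agonist moves these genes further in transgenic neurospheres. No member passed the adjusted threshold in BK_APP vs APP_WT, nor did any probe (0% of 29361 in either direction, limma). At an unadjusted p below 0.05, 1 member was higher and none was lower, against 2.10% higher and 2.36% lower over all probes. By SAM and rank products 1 member, Fas, was called higher, against 1.16% of all probes higher and 0.673% lower.

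Fas was that member by both counts. Its log2 ratio of BK_APP over APP_WT was 0.26, 0.30, 0.47 and -0.02, with a mean of 0.25 (95% interval 0.02 to 0.49, unadjusted p = 0.0382, adjusted p = 0.967, limma), and 0.330% of all probes had a larger increase. Its levels were 10.24, 10.18, 10.10 and 10.04 in BK_APP and 9.99, 9.88, 9.63 and 10.06 in APP_WT, and the groups overlapped through the fourth array. Without the third array the mean was 0.13, and without the fourth it was 0.37.

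Tnf was at 0.33, 0.17, 0.22 and -0.16, with a mean of 0.14 (95% interval -0.02 to 0.30, unadjusted p = 0.0803, adjusted p = 0.967, limma). In the processed signals and the deposited log2 ratios the mean of Tnf was 0.41, and it did not pass there either. Cflar was the member above 0 on all 4 arrays, at 0.12, 0.01, 0.17 and 0.13, which 5.06% of all probes were, with a mean of 0.11 and an unadjusted p of 0.0542. Its second probe had a mean of -0.03, and the mean over its probes was 0.03. Tnfrsf1a had a mean of 0.04 (-0.11 to 0.19), Ripk1 of 0.05 (-0.11 to 0.20) and Casp8 of -0.02 (-0.16 to 0.12). Mlkl was not well above background in either condition, so no fold is given.

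On the fourth BK_APP array 4 members turned in direction against the other 3 arrays, while Casp8 and Cflar were above 0 on it, at 0.01 and 0.13. Over the tested probes it correlated with the third array, of the same dye layout (r = 0.244). With the first and the second array it correlated negatively (r = -0.323 and -0.245). There Tnf, Tnfrsf1a, Fas and Ripk1 were below 0, at -0.16, -0.11, -0.02 and -0.16, and all 4 were above 0 on arrays 1 to 3. The fourth HOE_APP array also gave the lowest HOE_APP values of Tnf, Tnfrsf1a and Fas, at -0.15, -0.26 and -0.22. Ripk1 was at 0.05 on it, which was not its lowest. The median of the 17 tested microglial markers was 0.20, 0.13, 0.16 and -0.02 on the 4 BK_APP arrays. Of the 17 means 12 were above 0, with a median of 0.15 over all arrays, and none was called. The summed log2 level of the 19 microglial markers with a probe ran from 14.8 to 15.4 in BK_APP and from 14.7 to 15.5 in APP_WT. All 10 neuronal markers had means below 0 in BK_APP (median -0.10), as had 6 of the 8 astrocyte markers (median -0.06), and none was called. The median of all tested probes was -0.005. The part of these markers' cells in the values of the members was not tested.

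Of the 65 tested pathway genes none passed the adjusted threshold in BK_APP vs APP_WT, 3 had an unadjusted p below 0.05, 33 had a mean above 0 and the median was 0.00. Over all probes 2.10% were higher and 2.36% lower at that unadjusted threshold. The largest increases were those of Traf1, with a mean of 0.26 and ratios of 0.33, 0.14, 0.31 and 0.28, and of Tnfaip3, with a mean of 0.24 and ratios of 0.18, 0.27, 0.36 and 0.13. The largest decreases were -0.15 for Ikbkg, the regulatory subunit of the IkB kinase, and -0.14 for Madd. That of Ikbkg rested on the second array (ratios of 0.04, -0.52, -0.03 and -0.09), and its mean was -0.01 without that array. For Madd the ratios of 0.41, 0.48, -0.90 and -0.55 followed the dye. By SAM and rank products Traf1, Tnfaip3 and Tnfrsf12a were called higher and none was called lower, against 1.16% of all probes higher and 0.673% lower. Tnfrsf12a was chosen for naming after its values were seen.

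HOE-140 treatment asked the same of a B2 antagonist. No member and no probe passed the adjusted threshold in HOE_APP vs APP_WT (0% of 29361 in either direction, limma). At an unadjusted p below 0.05, 1 member was higher and none was lower, against 2.31% higher and 2.72% lower over all probes. SAM and rank products called no member, against 0.790% of probes higher and 1.52% lower.

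The member with the lowest p was Mlkl, at 0.06, 0.01, 0.19 and 0.34, with a mean of 0.15 (95% interval 0.01 to 0.29, unadjusted p = 0.0397, adjusted p = 0.924, limma). The mean ran from 0.10 after median centering to 0.49 in the processed signals, without passing. All 4 arrays were above 0, which 5.66% of probes were, and the probe was well above background on 3 of 4 arrays in HOE_APP and on 2 in APP_WT. Mlkl passed the filter only through HOE_APP, so its count as a member higher in HOE_APP depends on that filter. Tnfrsf1a was below 0 on all 4 arrays, which 4.98% of probes were, at -0.07, -0.07, -0.02 and -0.26, with a mean of -0.11 (-0.25 to 0.04, unadjusted p = 0.139, limma). Its second probe was below 0 on all 4 arrays too, with a mean of -0.06. After centering by the median in place of loess, the brighter probe was at 0.01.

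The remaining members were closer to 0. Fas was at -0.10, 0.04, 0.01 and -0.22, with a mean of -0.07 (-0.31 to 0.17), and Tnf was at -0.12, -0.04, 0.07 and -0.15, with a mean of -0.06 (-0.22 to 0.10). Ripk1 was at 0.08, -0.26, 0.08 and 0.05, so that the second array alone was below 0, and its mean was -0.01. Casp8 had a mean of 0.04 (-0.10 to 0.18) and Cflar of 0.02 (-0.08 to 0.13). The tested microglial markers had a median of -0.10 with all 17 means below 0, where the median of all tested probes was 0.0002. The summed log2 level of the 19 with a probe was 14.5 to 14.9 in HOE_APP and 14.6 to 15.1 in APP_WT. All 8 astrocyte markers had means below 0 as well (median -0.09), and of the 10 neuronal markers 7 did (median -0.02). None of these was called, and their part in the values of the members was not tested.

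**Figure D3:**
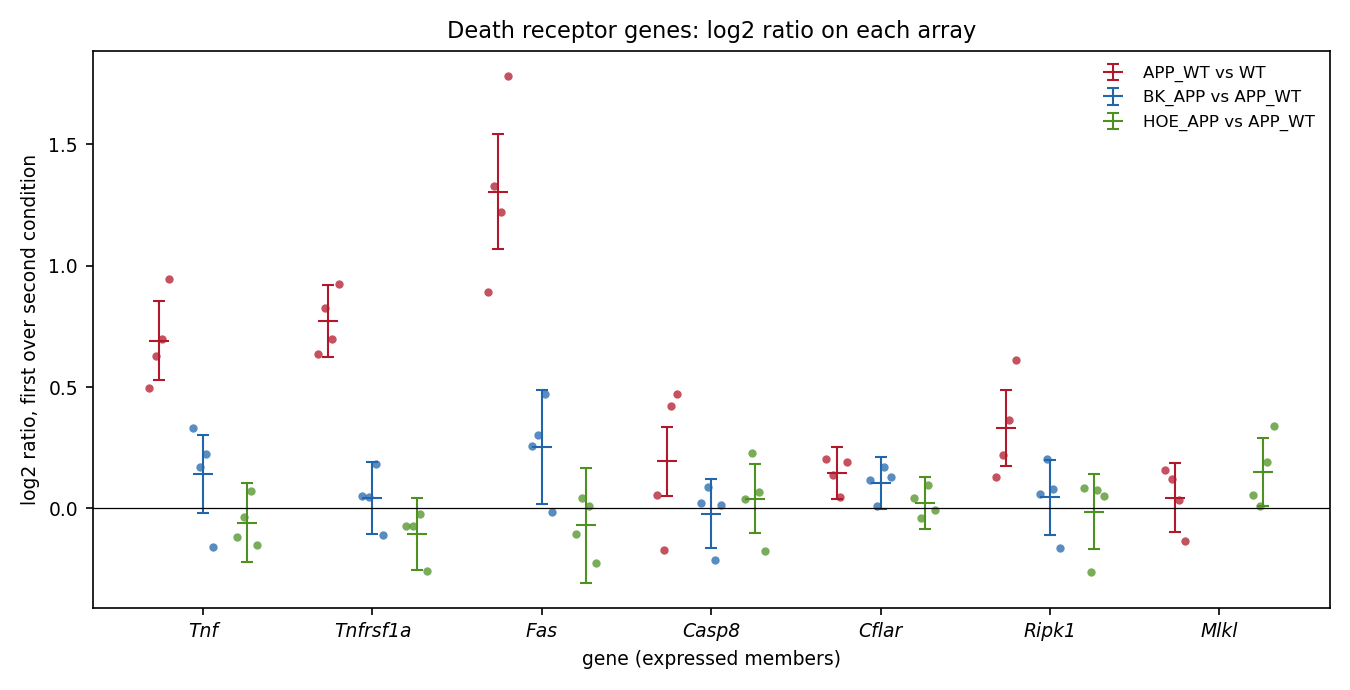
Log2 ratio of the first over the second condition (y axis) for the tested members (x axis) in APP_WT vs WT (red), BK_APP vs APP_WT (blue) and HOE_APP vs APP_WT (green), with points for the 4 arrays and a bar for the mean with its 95% interval. The red values of Fas, Tnfrsf1a and Tnf lie above the blue and green ones, Mlkl has no blue values because it was not well above background there, and the red values of Tnf, Casp8 and Mlkl are measured against a WT channel that was not well above background.

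Of the 65 pathway genes none passed in HOE_APP vs APP_WT, 5 had an unadjusted p below 0.05, 23 had a mean above 0 and the median was -0.01. Over all probes 2.31% were higher and 2.72% lower at that unadjusted threshold. The largest increases were those of Tnfrsf25, a death domain receptor, at 0.17, and of Diablo, the mitochondrial antagonist of apoptosis inhibitors, at 0.12. The largest decreases were -0.19 for Rhbdf2 and -0.15 for Tnip1. SAM and rank products called 1 gene, Tnfrsf25, higher and none lower, against 0.790% of all probes higher and 1.52% lower.

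The difference between the agonist and the antagonist, given at the same dose and on the same days, was tested directly for the 6 members measured in both, with p-values adjusted over all 29361 probes. No member and no probe passed (0% in either direction, limma), and no member was below 0.05 unadjusted, against 1.20% of probes higher and 1.29% lower. Fas was 0.32 higher in BK_APP (95% interval -0.01 to 0.66, unadjusted p = 0.0576) and Tnf was 0.20 higher (-0.03 to 0.43, unadjusted p = 0.0800). Tnfrsf1a differed by 0.15 (-0.06 to 0.36), Cflar by 0.08 (-0.07 to 0.24), Ripk1 by 0.06 (-0.16 to 0.28) and Casp8 by -0.06 (-0.26 to 0.14). Were the direction of the HOE_APP arrays the opposite one, the difference would be 0.18 for Fas and 0.08 for Tnf. In the processed signals that of Tnf was 0.51. These intervals do not show that the treatments act alike. They come from the main fit, which did not pair arrays with the same number. With the replicate number as a block no probe passed either (lowest adjusted p = 0.789, limma). Between arrays of the same number, the brightest probes of Fas, Tnfrsf1a and Cflar were higher in BK_APP each time. Those of Tnf, Ripk1 and Casp8 and the other probes of Tnfrsf1a and Cflar were not. How many of all probes do so was not counted, so nothing is concluded from this pattern. Both treatments were measured against untreated APP_WT neurospheres, so the values share that reference.

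**Figure D4:**
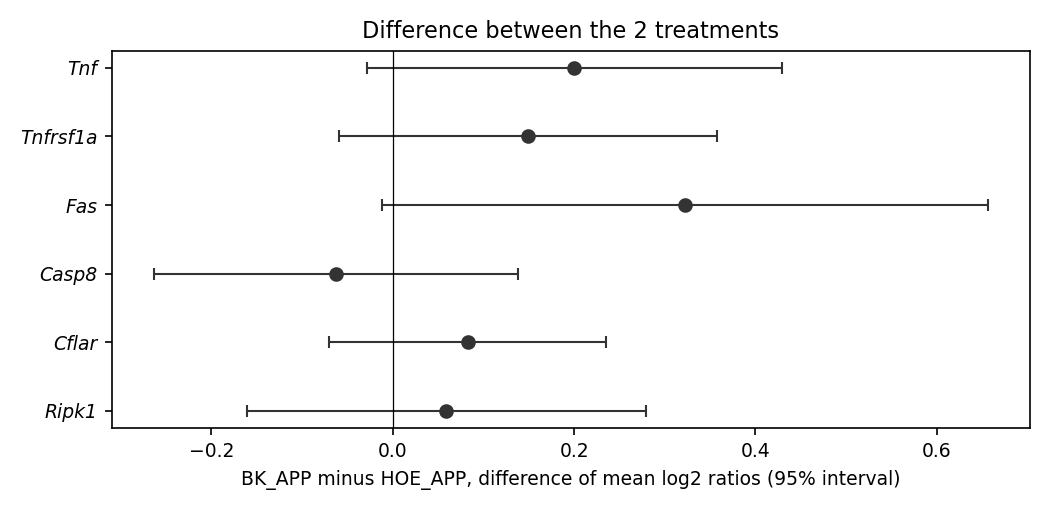
Difference between the mean log2 ratios of BK_APP and HOE_APP, each against APP_WT (x axis), for the 6 members measured in both (y axis), as points with 95% intervals from the fit over all arrays. That fit did not pair arrays with the same number. All 6 intervals include 0, and those of Fas and Tnf reach up to 0.66 and 0.43.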

How the data were processed

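Each 2-color Agilent array was scanned by the authors, and the deposited files give, per the file headers, Feature Extraction 11.0.1.1 median intensity values for spot and background in both channels, processed intensity values and a log10 ratio of red over green. The deposited value table holds log2 ratios, which matched the scanner ratios. The methods describe 4 independent biological replicates a comparison.

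Median intensities were corrected with normexp (offset 50) and normalized within arrays by loess (span 0.3) in limma 3.58.1 (R 4.3.3), without control spots (3671 of 62976) and with non-uniform spots at weight 0. Ratios were turned to the first over the second condition. Channel levels were scaled by Aquantile. Of 55681 probes 29361 were tested, and 27509 of 29150 with a RefSeq accession were named from RefSeq. All 12 arrays entered 1 fit, in which every comparison had its own mean and its own dye term. P-values were two-sided and adjusted by Benjamini-Hochberg over all tested probes (threshold 0.05). SAM (16 sign flips) and rank products (100 permutations) called a probe where both unadjusted p-values were 0.05 or lower. The script was tested on simulated data.

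Where a condition was not well above background on any array, a fold is the bound "at least", from the mean level of the brighter condition against, per array, the higher of the dim signal and the lowest signal well above background. That mean takes in arrays on which the brighter condition was itself dim. The brightest tested probe stood for a gene. The members, lists and tests were chosen with earlier results of these data known. Named were all members, the 8 pathway genes with the largest rise and the 8 with the largest fall in APP_WT vs WT (3 fell, of which 1 is counted but not reported here), the 2 at each end in the treatments, and the extremes of each marker list. The APP_WT vs WT arrays lay on 1 slide and all treated arrays on another, so slides were not compared. Deviations of BK_APP and HOE_APP arrays with the same number correlated (r from 0.515 to 0.675). Arrays with different numbers and the same dye layout correlated as well, less strongly (r from 0.0972 to 0.310). The numbers were taken to pair the arrays in the replicate block only, and the main fit did not use them. Alternatives were the background correction, scaling, source of values, filter, model, test, probe choice, replicate block, direction of HOE_APP and leaving out each array.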

Additional observations from a re-analysis of the deposited data

Results flagged for a closer look

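One value stood far from its group. In HOE_APP vs APP_WT the log2 ratio of Ripk1 on the second array was -0.262, while the other 3 arrays lay between 0.05 and 0.08, and its gap to the nearest of them was 0.909 of the whole range, above Dixon's critical value for 4 samples. Chance gives such a gap in about 5 percent of groups, and 30 groups of 4 were checked. Without that array the mean of Ripk1 was 0.07.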

How the results depend on the processing

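In APP_WT vs WT, Fas, Tnfrsf1a and Tnf passed the threshold under every alternative, and the count of members called was 3 to 4 when an array was left out. The pathway count, 19, became 9 in separate fits without dye terms and 16 to 20 when an array was left out. With the replicate block, Cflar passed (0.14, adjusted p = 0.0444) and no other member changed its call. By SAM and rank products 1 member and 3 pathway genes were called in BK_APP and 1 pathway gene in HOE_APP, against 0 in limma.

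Signs turned for the following values, none of which had passed the threshold. In the processed signals and in the deposited ratios, Cflar was -0.0531 and -0.0531 for APP_WT and -0.0108 and -0.0108 for HOE_APP, and Ripk1 was 0.0769 and 0.0767 for HOE_APP and -0.0298 and -0.0295 for BK_APP minus HOE_APP. Casp8 in BK_APP was 0.0450 without background correction. In HOE_APP, median centering gave 0.0143 for Tnfrsf1a, 0.0388 for Fas and 0.0391 for Ripk1, and the mean over probes gave -0.0290 for Cflar. With the HOE_APP sign turned, BK_APP minus HOE_APP was -0.0643 for Tnfrsf1a and 0.0172 for Casp8. With an array left out, BK_APP ran from -0.0312 to 0.116 for Tnfrsf1a, -0.0796 to 0.0342 for Casp8 and -0.0158 to 0.107 for Ripk1. HOE_APP ran from -0.0210 to 0.101 for Casp8, -0.00188 to 0.0478 for Cflar and -0.0994 to 0.0731 for Ripk1, BK_APP minus HOE_APP from -0.0274 to 0.145 for Ripk1, and Casp8 minus Cflar from -0.0597 to 0.169. The cause was not tested. Dim probes limit Tnf, Casp8 and Mlkl, whose WT channel was not well above background.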
